A study of Homo sapiens with 6 samples.

Results

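Of the 20442 genes in the table of read counts, 47 carry a symbol of the splicing-factor families SRSF (12 genes), HNRNP (26 genes) or SF3A and SF3B (9 genes, called SF3 here), and these 47 are described. The rule that picks them reads the symbol and uses no measured value. The cells were T24, a long-established human bladder carcinoma line. The tested perturbation was a small interfering RNA (siRNA) against KNSTRN, which encodes a spindle and kinetochore protein. The si-KNSTRN group and the si-NC group, which received a control siRNA, each held 3 libraries of total RNA, described by the submitters as biological replicates. In both groups the dishes had been left to attach for 24 h, and the siRNA then acted for 24 h. The model is a single line at a single time, no untreated cells were analysed here, and the siRNA sequences are unknown from the labels.

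Splicing removes introns from pre-mRNA. The SR proteins, encoded by the SRSF genes, bind exons through RNA recognition motifs and use a tail rich in arginine and serine to recruit the splicing machinery, most often favouring inclusion of an exon. The heterogeneous nuclear ribonucleoproteins (hnRNPs) coat nascent transcripts and often oppose SR proteins at the same exon, while the SF3A and SF3B complexes are parts of the U2 small nuclear ribonucleoprotein (snRNP) that settles on the branch site. Many SR and hnRNP genes regulate their own mRNA through alternatively spliced exons that lead to decay, which counts per gene do not resolve.

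The libraries held 16386799 to 20596074 counted reads, so that the limit which a count of 0 leaves, 3 reads, equals 0.146 to 0.183 CPM (counts scaled to library size). Reads of KNSTRN, the targeted gene, numbered 269, 245 and 226 in si-KNSTRN libraries and 777, 663 and 762 in si-NC libraries, or -1.62 as log2 fold change (adjusted p = 1.7e-11, edgeR quasi-likelihood test with Benjamini-Hochberg adjustment). The effect on the transcriptome was broad: of 12650 genes tested, 62.5% were called at an adjusted p under 0.05, 31.2% higher and 31.3% lower in si-KNSTRN cells. Of 6 epithelial markers 5 were tested and CDH1 had no read; the list summed to 3080 to 3240 CPM in si-KNSTRN libraries and 2830 to 3000 CPM in si-NC libraries. Of 6 urothelial markers 3 were tested, of which 1 was called higher and 1 lower in si-KNSTRN cells. UPK1B, UPK2 and UPK3A were not tested, and UPK3A had no read. The urothelial list summed to 44.3 to 49.2 CPM in si-KNSTRN libraries and 28.7 to 32.8 CPM in si-NC libraries, a sum that hides the opposite calls. Ribosomal protein genes took 5.84 to 6.62% of reads in si-KNSTRN libraries and 7.41 to 7.91% in si-NC libraries, and mitochondrial genes took 4.48 to 4.96% in si-KNSTRN libraries and 4.21 to 4.41% in si-NC libraries. The part of any of these in the results was not tested. In si-KNSTRN library 3, 8.96% of all genes tested lay at least 0.32 on the log2 scale from the mean of si-KNSTRN libraries 1 and 2. Among the splicing factors 4 of the 42 tested did so, a share close to that of all genes. They were HNRNPA1, HNRNPA1L2, HNRNPA1L3 and HNRNPA3, which are given with and without that library.

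Of the 47 genes, 42 had enough reads to be tested. SRSF12 and the HNRNPC-like genes HNRNPCL1, HNRNPCL2, HNRNPCL3 and HNRNPCL4 had no read in any library. Of the 42, 8 rose and 14 fell in si-KNSTRN cells and 20 were not called, so that 52.4% were called against 62.5% of all genes tested. Of 11 SRSF genes tested 3 rose and 4 fell, of 22 HNRNP genes 4 rose and 7 fell, and of 9 SF3 genes 1 rose and 3 fell. The 4 HNRNP genes that rose include HNRNPA1L3, whose groups overlapped and whose rise rests on si-KNSTRN library 3 alone. Without that library 3 HNRNP genes were called higher and 6 lower. HNRNPA1L3 is also counted among the 8 that rose and the 5 higher by at least 0.32. Changes were mostly small: 9 of the 42 were called with a log2 fold change of at least 0.32 in size (5 higher, 4 lower), against 40.5% of all genes tested. The median absolute log2 fold change was 0.14 for SRSF, 0.13 for HNRNP and 0.11 for SF3 genes, against 0.28 over all genes tested. All genes tested include weakly expressed ones, and these comparisons were not matched for expression level. The median signed change was -0.018 for SRSF genes, -0.045 for HNRNP genes and -0.038 for SF3 genes, against -0.0061 over all genes. Scaled by library size alone, it was 0.018 for SRSF genes and -0.0083 for HNRNP genes, against 0.0303 over all genes. In 25 of the 42 the groups did not overlap in CPM (9 higher, 16 lower), against 67.3% of all genes tested (33.4% higher, 33.9% lower). In bulk RNA, fewer cells that express a gene and less RNA per cell cannot be told apart.

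**Figure D1:**
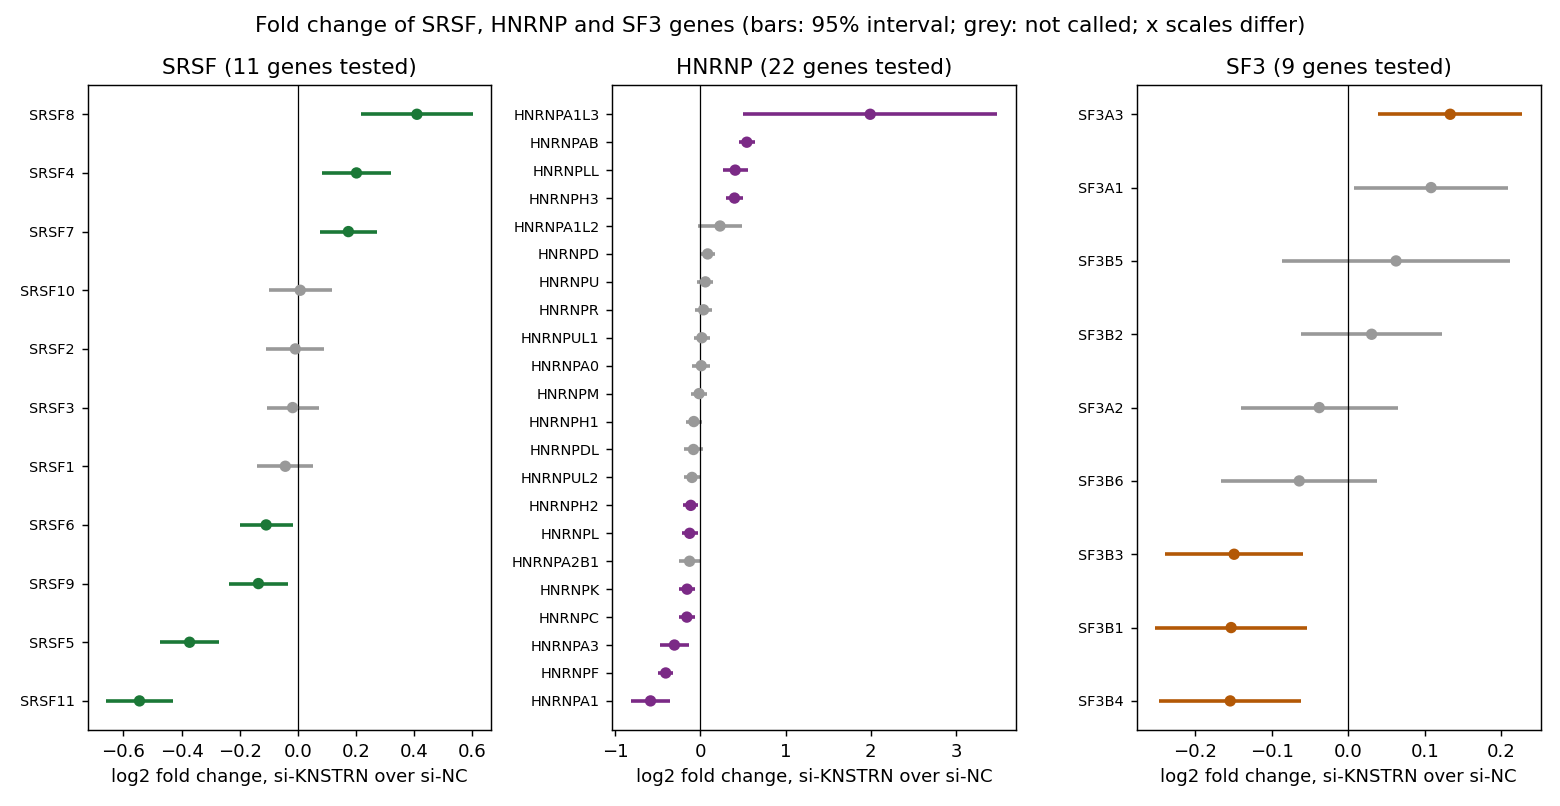
Log2 fold change of si-KNSTRN over si-NC for each SRSF, HNRNP and SF3 gene tested, with 95% intervals as bars, called genes in colour and other genes in grey; the x scales differ between panels. HNRNPA1L3 has by far the widest interval, and SF3 genes lie between -0.15 and 0.13.

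Among the SR proteins, the largest differences were falls of SRSF11 and SRSF5 and a rise of SRSF8. SRSF11 (chromosome 1, 70205696 to 70253052, GRCh38) encodes p54, an SR protein that binds U2AF at the end of introns. It had 141, 124 and 124 CPM in si-KNSTRN libraries 1 to 3, against 183, 186 and 197 CPM in si-NC libraries 1 to 3. All 3 si-KNSTRN libraries lay below all si-NC libraries, and the log2 fold change was -0.54 with an SE of 0.055 (adjusted p = 2.6e-07, edgeR).

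SRSF4, SRSF5 and SRSF6 form a branch of close relatives, known as SRp75, SRp40 and SRp55, and they did not move as one. SRSF5 (chromosome 14, 69767142 to 69772005) had 262, 242 and 243 CPM in si-KNSTRN libraries, against 329, 308 and 331 CPM in si-NC libraries, and fell by 0.37 on the log2 scale (adjusted p = 4.6e-06, edgeR). SRSF4 rose in the same cells, with 141, 128 and 148 CPM in si-KNSTRN libraries and 114, 123 and 126 CPM in si-NC libraries (log2 fold change 0.20, adjusted p = 0.0052, edgeR). The groups did not overlap in either gene. SRSF6 had 192, 187 and 186 CPM in si-KNSTRN libraries against 199, 203 and 207 CPM in si-NC libraries, a small fall (log2 fold change -0.11, adjusted p = 0.036, edgeR). That call was lost without si-KNSTRN library 2 or 3 or si-NC library 2 or 3 (adjusted p = 0.118, 0.0751, 0.0782 and 0.0626), under library-size scaling (0.162) and with no filter on low counts (0.055).

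SRSF8 is a close relative of SRSF2 (SC35, a regulator of exon inclusion), with 84.8% identity over the aligned coding sequence. It had the lowest level per kilobase of the SRSF genes tested, and its CPM were 16.7, 19.1 and 19.2 in si-KNSTRN libraries against 14.9, 14.2 and 12.2 in si-NC libraries. It rose without overlap (log2 fold change 0.41, adjusted p = 9.1e-04, edgeR). SRSF2 itself had 183, 181 and 169 CPM in si-KNSTRN libraries and 183, 181 and 172 CPM in si-NC libraries, and its 95% interval ran from -0.11 to 0.09 on the log2 scale.

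SRSF7 and SRSF3, shuttling SR proteins that also serve mRNA export, differed in outcome. SRSF7 had 203, 189.7 and 192 CPM in si-KNSTRN libraries against 166, 176 and 177 CPM in si-NC libraries and rose (log2 fold change 0.17, adjusted p = 0.0039, edgeR). SRSF3 had 331, 321 and 324 CPM in si-KNSTRN libraries and 329, 331 and 329 CPM in si-NC libraries, which overlap; its interval was -0.11 to 0.071. No test was made of the difference between these relatives.

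SRSF1 (ASF/SF2, the founding SR protein) had 193, 205 and 210.2 CPM in si-KNSTRN libraries and 209, 209 and 208 CPM in si-NC libraries, and was not called (interval -0.14 to 0.053). Its relative SRSF9 had 262, 255 and 281 CPM in si-KNSTRN libraries, against 290.1, 301 and 285 CPM in si-NC libraries, and fell slightly (log2 fold change -0.14, adjusted p = 0.021, edgeR). The SRSF9 call was lost without si-KNSTRN library 1 or 2 or si-NC library 2 (adjusted p = 0.0594, 0.13 and 0.092) and under library-size scaling (0.0924). SRSF10, which represses splicing when dephosphorylated, had 74.7, 75.5 and 77.5 CPM in si-KNSTRN libraries and 72.2, 73.6 and 80.7 CPM in si-NC libraries, with overlap (interval -0.10 to 0.12). Leaving out si-KNSTRN library 2 or si-NC library 2 took SRSF6 and SRSF9 out and left 2 SRSF genes lower in place of 4. SRSF2 overlaps the tested gene MFSD11 and SRSF9 overlaps GATC, and counts that ignore strand do not separate such genes.

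**Figure D2:**
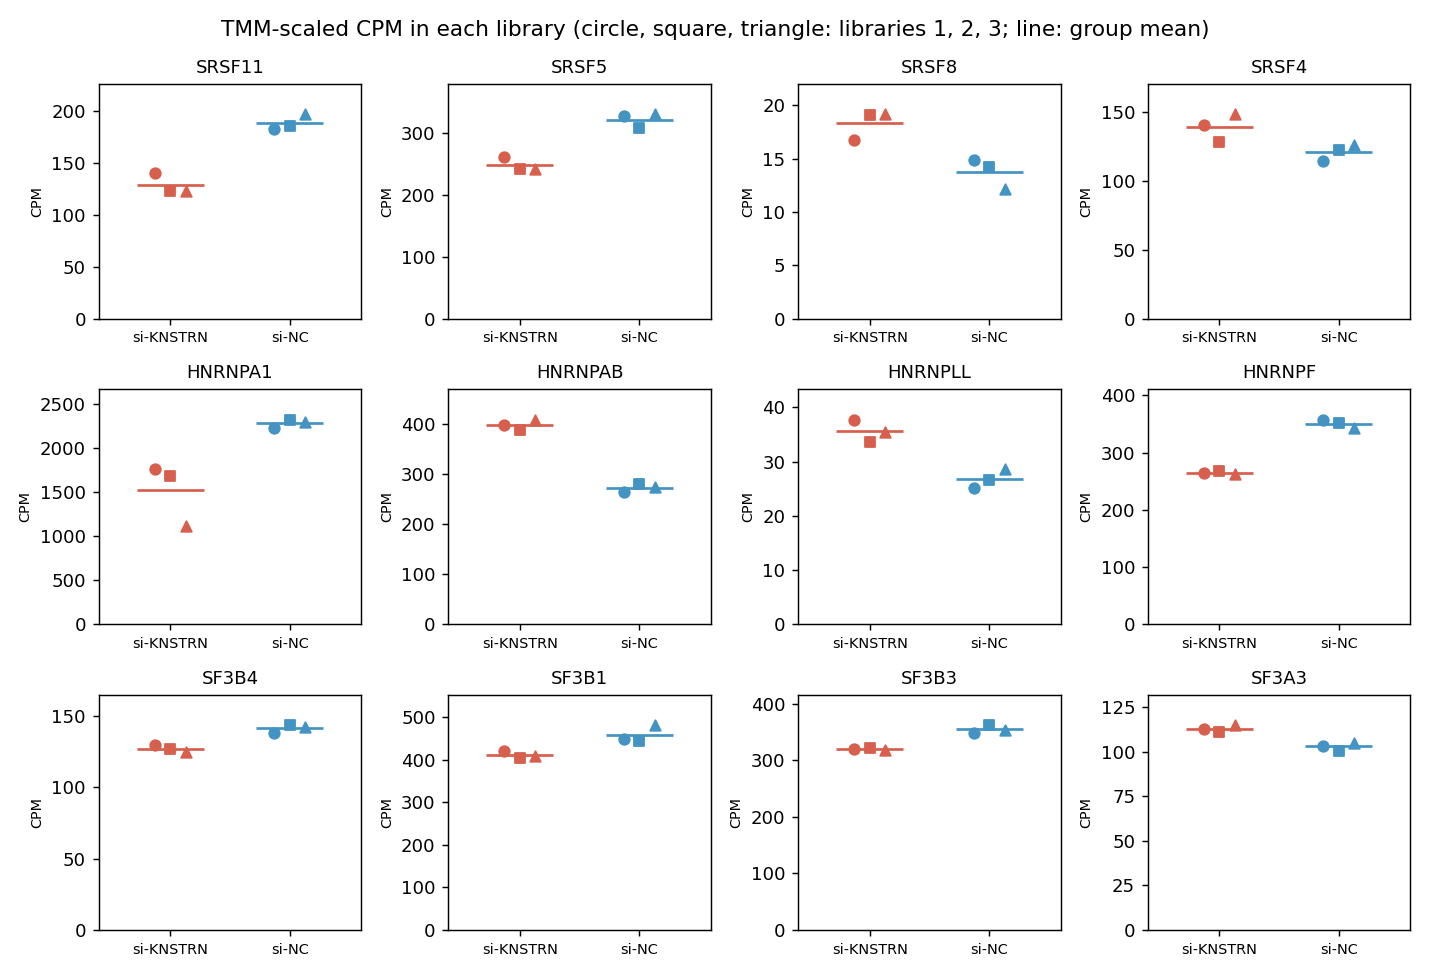
TMM-scaled CPM in each library for the 4 genes of each family with the largest called differences and no overlap between groups; each panel shows si-KNSTRN on the left and si-NC on the right, points are libraries and lines are group means. In each panel the groups do not overlap, and in HNRNPA1 si-KNSTRN library 3 lies at 1113 CPM, below all other libraries.

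Among the genes with an HNRNP symbol, HNRNPA1 had the largest fall in the fit of all libraries. It encodes a protein that binds exonic and intronic silencers and represses exons. HNRNPA1 (chromosome 12, 54280726 to 54287087) had 1759, 1683 and 1113 CPM in si-KNSTRN libraries, against 2219, 2316 and 2292 CPM in si-NC libraries. All si-KNSTRN libraries were below all si-NC libraries, library 3 by the widest margin. The log2 fold change was -0.58 (SE 0.11, adjusted p = 2.3e-04, edgeR), and -0.40 without si-KNSTRN library 3 (adjusted p = 5.8e-08). The rank as largest fall rests on that library: without it HNRNPA1L3 fell further (-0.505). HNRNPF lay between -0.423 and -0.393 when any 1 library was left out.

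HNRNPA1 has many copies elsewhere in the genome, 2 of which are rows of the table: HNRNPA1L2 on chromosome 13 and HNRNPA1L3 on chromosome 16. HNRNPA1L3 is named HNRNPA1P48 in GENCODE release 29. Over aligned coding bases HNRNPA1L3 is 99.3% and HNRNPA1L2 98.4% identical to HNRNPA1.

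HNRNPA1L3 had 11.3, 8.87 and 152 CPM in si-KNSTRN libraries, against 13.9, 14.7 and 14.6 CPM in si-NC libraries. Libraries 1 and 2 of si-KNSTRN lay below every si-NC library and library 3 was far above, so the groups overlapped. The fitted log2 fold change of 1.99 (with an SE of 0.71 and adjusted p = 0.021, edgeR) therefore rests on 1 library: without it the value was -0.51 (adjusted p = 2.1e-04), the opposite sign. The call was lost without si-NC library 1, 2 or 3 (adjusted p = 0.0689, 0.0568 and 0.0948) and by limma-voom (0.361). HNRNPA1L2 had 10.9, 10.5 and 15.0 CPM in si-KNSTRN libraries and 10.4, 10.5 and 10.1 CPM in si-NC libraries, again with library 3 highest; it was not called (adjusted p = 0.104, edgeR; log2 fold change 0.05 without si-KNSTRN library 3) except without si-KNSTRN library 1 or 2 (0.0448 and 0.033).

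The 3 HNRNPA1-type rows summed to 1781, 1703 and 1280 CPM in si-KNSTRN libraries and 2243, 2342 and 2317 CPM in si-NC libraries, so the sum was lower in every si-KNSTRN library and lowest in library 3. HNRNPA3, a relative with a known part in RNA trafficking, had 774, 735 and 571 CPM in si-KNSTRN libraries against 823, 852 and 891 CPM in si-NC libraries, again apart and with library 3 lowest. Its log2 fold change was -0.30 (adjusted p = 0.0035, edgeR), and -0.18 without si-KNSTRN library 3 (adjusted p = 0.0022). The share of 50-base windows of the transcript that also occur in another gene was 28.8% for HNRNPA1, 53.3% for HNRNPA1L2, 49.2% for HNRNPA1L3 and 49.9% for HNRNPA3. No window of HNRNPA3 was shared with the 3 HNRNPA1-type rows, and its coding identity to HNRNPA1 was 70.8%. HNRNPC shared 27.6% and did not stand apart in library 3. These shares depend on the transcript chosen, which for HNRNPA1 had 4121 bases, 2543 of them in the 3' untranslated region. The other 38 splicing factors tested lay between -0.18 and 0.14 (log2) in library 3 relative to libraries 1 and 2. The authors' handling of reads that align in several places is not stated in the labels, and its part in these values was not tested.

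**Figure D3:**
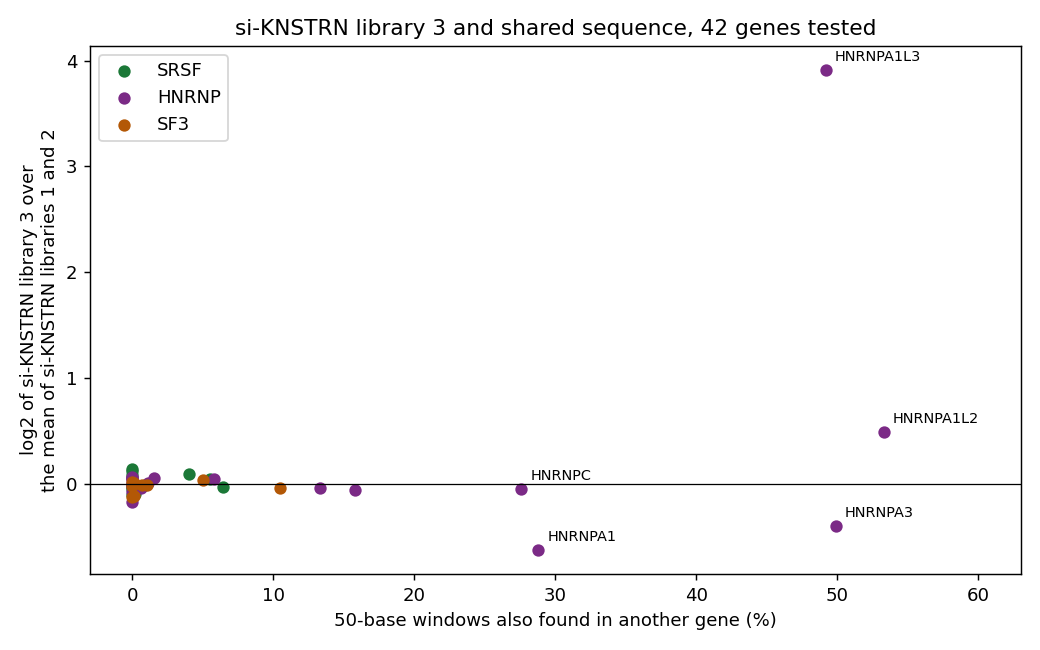
Log2 ratio of si-KNSTRN library 3 over the mean of si-KNSTRN libraries 1 and 2 (y) against the percentage of 50-base transcript windows found in another gene (x), 1 point per gene tested, coloured by family. HNRNPA1L3 and HNRNPA1L2 lie above and HNRNPA1 and HNRNPA3 below the other 38 genes, while HNRNPC, with 27.6% shared, lies close to 0.

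HNRNPA2B1 and HNRNPA0, relatives of HNRNPA1, did not pass the test. HNRNPA2B1, an RNA sorting and splicing protein, had 1411, 1283 and 1193 CPM in si-KNSTRN libraries and 1342, 1432 and 1467 CPM in si-NC libraries, which overlap (interval -0.25 to -0.001, adjusted p = 0.073, edgeR). It was called lower without si-KNSTRN library 1 (adjusted p = 0.00772) and under upper-quartile scaling (0.0273). HNRNPA0, which binds AU-rich elements, had 172, 188 and 186 CPM in si-KNSTRN libraries and 183, 187 and 172 CPM in si-NC libraries (interval -0.093 to 0.12). HNRNPA2B1 overlaps the tested genes CBX3 and NFE2L3.

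HNRNPAB rose more than any other gene with an HNRNP symbol whose groups did not overlap. It encodes a relative of HNRNPD, the AU-rich element binding protein AUF1. HNRNPAB (chromosome 5, 178204533 to 178211163) had 398, 388 and 409 CPM in si-KNSTRN libraries, against 265, 279.8 and 273 CPM in si-NC libraries, which is 0.55 higher on the log2 scale with an SE of 0.045 (adjusted p = 2.5e-08, edgeR). HNRNPD had 531, 524 and 520.5 CPM in si-KNSTRN libraries and 488, 495 and 501 CPM in si-NC libraries. The groups did not overlap, but the difference missed the threshold (interval -0.0048 to 0.18, adjusted p = 0.091, edgeR) and passed it by DESeq2 (0.0395) and under library-size scaling (0.0199). HNRNPDL had 424, 385 and 383 CPM in si-KNSTRN libraries and 405, 420.2 and 435 CPM in si-NC libraries, with overlap (interval -0.19 to 0.027), and was called lower only when si-KNSTRN library 1 was left out (adjusted p = 0.0399) among the settings run. HNRNPAB overlaps the tested gene PHYKPL.

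The H and F proteins, which bind runs of guanines, split in both directions. HNRNPF (chromosome 10, 43385618 to 43409186) had 265, 268 and 262 CPM in si-KNSTRN libraries, against 357, 352 and 343 CPM in si-NC libraries, and fell by 0.41 on the log2 scale (adjusted p = 4.8e-07, edgeR). HNRNPH3 rose, with 426, 415 and 439 CPM in si-KNSTRN libraries against 313, 322 and 334 CPM in si-NC libraries (log2 fold change 0.40, adjusted p = 1.1e-06, edgeR). The groups were apart in both genes. HNRNPH1 had 708, 692 and 705 CPM in si-KNSTRN libraries and 748, 718 and 753 CPM in si-NC libraries, which do not overlap; it was not called (interval -0.17 to 0.018) except under upper-quartile scaling (adjusted p = 0.0326). HNRNPH2, with 87.6% coding identity to HNRNPH1, had 184, 182 and 177 CPM in si-KNSTRN libraries against 193, 196 and 198 CPM in si-NC libraries (log2 fold change -0.11, adjusted p = 0.032, edgeR). This small fall was not called without si-KNSTRN library 2 or 3 or si-NC library 2 (adjusted p = 0.086, 0.081 and 0.0739) or under library-size scaling (0.146). HNRNPH2 overlaps the readthrough gene RPL36A-HNRNPH2, and HNRNPH3 overlaps PBLD and RUFY2.

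HNRNPL and its paralog HNRNPLL, which bind CA-rich RNA and are known from alternative splicing of CD45 in lymphocytes, were called in opposite directions. HNRNPLL (chromosome 2, 38561969 to 38602928) had 37.7, 33.6 and 35.5 CPM in si-KNSTRN libraries against 25.2, 26.6 and 28.7 CPM in si-NC libraries and rose without overlap (log2 fold change 0.41, adjusted p = 8.5e-05, edgeR). HNRNPL had 379, 370.1 and 359 CPM in si-KNSTRN libraries against 404, 399 and 404 CPM in si-NC libraries and fell slightly (log2 fold change -0.12, adjusted p = 0.02, edgeR). The HNRNPL call was lost without si-KNSTRN library 2 or 3 or si-NC library 1 (adjusted p = 0.0691, 0.051 and 0.0575) and under library-size scaling (0.0863).

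Small falls were also called for HNRNPC, the protein that measures nascent transcript length and competes with U2AF, and for HNRNPK, which binds C-rich sequence. HNRNPC had 627, 619.8 and 602 CPM in si-KNSTRN libraries against 682, 697 and 684 CPM in si-NC libraries (log2 fold change -0.16, adjusted p = 0.0052, edgeR). HNRNPK had 825, 826 and 802 CPM in si-KNSTRN libraries against 894, 909.6 and 927 CPM in si-NC libraries (log2 fold change -0.15, adjusted p = 0.0062, edgeR). In both genes all si-KNSTRN libraries lay below all si-NC libraries.

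The scaffold-associated HNRNPU and its relatives were not called. HNRNPU had 812, 808 and 798 CPM in si-KNSTRN libraries and 765, 762 and 793 CPM in si-NC libraries (interval -0.034 to 0.15), apart but not called. HNRNPUL1 had 307, 306 and 317 CPM in si-KNSTRN libraries and 305, 315 and 300.2 CPM in si-NC libraries (interval -0.074 to 0.11). HNRNPUL2 had 332, 335 and 334 CPM in si-KNSTRN libraries and 353, 366 and 352 CPM in si-NC libraries, which do not overlap; its adjusted p of 0.059 by edgeR missed the threshold and passed it by DESeq2 (0.0491), limma-voom (0.0438), under upper-quartile scaling (0.0108) and without si-NC library 3 (0.0377). HNRNPM, known for splicing changes in the epithelial to mesenchymal transition, had 498, 478 and 505 CPM in si-KNSTRN libraries and 481, 509 and 506 CPM in si-NC libraries, which overlap (interval -0.11 to 0.083). HNRNPR had 332, 342 and 346 CPM in si-KNSTRN libraries and 318, 337 and 338 CPM in si-NC libraries, also with overlap (interval -0.056 to 0.13). HNRNPU overlaps COX20 and HNRNPUL1 overlaps TGFB1.

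SF3B is the complex that holds the branch site and is the target of spliceosome inhibitors. Of the 6 genes with an SF3B symbol, 3 fell by nearly the same small amount and none rose. Over all genes tested 31.3% were called lower and 31.2% higher. PHF5A, an SF3B subunit with another symbol, rose (log2 fold change 0.40) and is given below with the U2 partners. SF3B1, the scaffold that is mutated in several cancers, had 421, 404 and 410.1 CPM in si-KNSTRN libraries against 449, 444 and 481 CPM in si-NC libraries (log2 fold change -0.15, adjusted p = 0.0093, edgeR). SF3B3 had 319, 322 and 319 CPM in si-KNSTRN libraries against 349, 362 and 353 CPM in si-NC libraries (log2 fold change -0.15, adjusted p = 0.0059, edgeR). SF3B4, which contacts the pre-mRNA upstream of the branch site, had 129.6, 127 and 125 CPM in si-KNSTRN libraries against 138, 144 and 143 CPM in si-NC libraries (log2 fold change -0.15, adjusted p = 0.0057, edgeR). The groups were apart in all 3 genes, and the SF3B1 call was lost without si-KNSTRN library 2 (adjusted p = 0.0567).

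The other genes with an SF3B symbol were not called. SF3B2 had 369, 350.2 and 354 CPM in si-KNSTRN libraries and 348, 355 and 348 CPM in si-NC libraries (interval -0.062 to 0.12). SF3B5, a small subunit, had 56.6, 58.0 and 52.5 CPM in si-KNSTRN libraries and 56.5, 57.2 and 46.4 CPM in si-NC libraries (interval -0.087 to 0.21). SF3B6 (p14), which contacts the branch-site adenosine, had 115, 111 and 104 CPM in si-KNSTRN libraries and 114, 114 and 118 CPM in si-NC libraries (interval -0.17 to 0.038). The groups overlapped in all 3 genes.

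In SF3A, which joins SF3B to the core of the U2 snRNP, 1 of 3 genes rose and none fell. The shares over all genes tested were 31.2% higher and 31.3% lower. SF3A3 had 113, 111 and 115 CPM in si-KNSTRN libraries against 103, 100.5 and 105 CPM in si-NC libraries (log2 fold change 0.13, adjusted p = 0.015, edgeR), and the call was lost without si-NC library 2 (adjusted p = 0.07) and under upper-quartile scaling (0.0829). SF3A1 had 123, 128 and 127 CPM in si-KNSTRN libraries and 114, 124 and 113 CPM in si-NC libraries, which overlap. It was not called (interval 0.0075 to 0.21) except without si-NC library 2 (adjusted p = 0.0242) and under library-size scaling (0.0158). SF3A2 had 83.3, 83.8 and 83.8 CPM in si-KNSTRN libraries and 88.7, 88.0 and 80.8 CPM in si-NC libraries (interval -0.14 to 0.065). SF3A1 overlaps CCDC157 and SF3A2 overlaps PLEKHJ1. No SF3 gene was called with a log2 fold change of 0.32 or more in size.

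Summed over each family, SRSF genes reached 1998, 1926 and 1974 CPM in si-KNSTRN libraries and 2088, 2106 and 2126 CPM in si-NC libraries. SF3 genes summed to 1731, 1694 and 1691 CPM in si-KNSTRN libraries and 1761, 1787 and 1789 CPM in si-NC libraries. HNRNP genes summed to 11224, 10879 and 10226 CPM in si-KNSTRN libraries and 11587, 11916 and 12017 CPM in si-NC libraries, a log2 ratio of means of -0.14. All 3 sums of TMM-scaled CPM were lower in every si-KNSTRN library than in any si-NC library. As a share of counted reads the SF3 groups touched, at 0.171 to 0.174% in si-KNSTRN libraries and 0.174 to 0.178% in si-NC libraries. Abundant genes weigh most in a sum, and 3 SRSF, 4 HNRNP and 1 SF3 genes were called higher. In the SRSF sum, SRSF5 had means of 249 CPM in si-KNSTRN and 323 in si-NC cells, and SRSF11 had 129 and 189. Without HNRNPA1, HNRNPA1L2, HNRNPA1L3 and HNRNPA3, a choice made after the data were seen, the HNRNP sum was 8669, 8441 and 8375 CPM in si-KNSTRN libraries and 8521, 8723 and 8809 CPM in si-NC libraries, which overlap, and the log2 ratio was -0.032. These sums are descriptions without a test.

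Per kilobase of 1 GENCODE transcript per gene, HNRNPA2B1 had the highest level of its family, 757 ± 64.1 CPM per kb in si-KNSTRN cells and 826 ± 37.5 in si-NC cells (SD, n = 3 each). SRSF9 led the SRSF genes with 221 ± 11.3 CPM per kb in si-KNSTRN cells and 243 ± 6.68 in si-NC cells, and SF3B6 led the SF3 genes with 143 ± 7.15 CPM per kb in si-KNSTRN cells and 149.8 ± 2.75 in si-NC cells. The order within families was similar in both groups. HNRNPAB ranked 7 of 22 in si-KNSTRN cells and 10 in si-NC cells, and SRSF11 ranked 10 of 11 in si-KNSTRN cells and 8 in si-NC cells. In si-NC libraries SRSF4 and SRSF11 overlapped, as did SRSF6 and SRSF10. These levels depend on the transcript chosen, since the exon lengths behind the authors' counting are not known here. The transcripts used had 4121 bases for HNRNPA1 and 1711 for HNRNPA2B1. Without division by length, HNRNPA1, SRSF3 and SF3B1 had the highest mean CPM of their families in both groups. In si-NC libraries SRSF3 (329, 331 and 329 CPM) and SRSF5 (329, 308 and 331 CPM) overlapped. HNRNPA1 averaged 2276 CPM against 1414 for HNRNPA2B1 in si-NC cells, and 1519 against 1296 in si-KNSTRN cells. In si-KNSTRN library 3 HNRNPA1 was the lower of the pair (1113 against 1193 CPM).

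The 3' untranslated regions (UTRs) were searched for TGAGTA on the sense strand, a word taken from an earlier analysis of these data, in which genes with it tended to be lower; it is shown as sequence context and is no independent evidence. It occurred in 15 of 41 family genes whose 3' UTR has 50 bases or more (36.6%), against 26.9% of 12159 tested genes. Of the 15 genes, 2 rose, 7 fell and 6 were not called; of all 3273 tested genes with the word, 726 rose, 1342 fell and 1205 were not called. SRSF11 holds 5 copies, SRSF6 and HNRNPA0 hold 4 each, and SRSF5, HNRNPA1 and SF3B1 hold none. The first site of 5 genes follows (GENCODE release 29, sense strand), chosen to show 2 genes that fell, 1 that was not called and 2 that rose, with TGAGTA in capitals.
SRSF11: aaatctgatTGAGTAaccaagcag
HNRNPF: atgtgataaTGAGTAaactaaaac
HNRNPH1: cagtgaagcTGAGTAaactataac
HNRNPLL: attttgcctTGAGTAaatttgttg
SF3A3: ttccctgaaTGAGTAttaccccag

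Lists of other splicing genes, 131 of them tested, had 43 higher and 42 lower, or 64.9% called, close to the 62.5% of all genes tested (31.2% higher, 31.3% lower). The counts of each list are descriptions to be read against those shares, and no difference between lists was tested. Of 10 genes for SR protein kinases and nuclear import, which set the phosphorylation and location of SR proteins, 7 fell and none rose (median log2 fold change -0.22). They included SRPK2 (27.0 ± 1.61 CPM in si-KNSTRN cells and 45.1 ± 0.94 in si-NC cells, log2 fold change -0.74) and the nuclear kinase CLK2 (65.3 ± 1.597 CPM in si-KNSTRN cells and 81.6 ± 4.39 in si-NC cells, -0.32). Of 15 branch site and U2 snRNP partners 7 rose and none fell (median 0.15), among them RBM17 (122 ± 5.81 CPM in si-KNSTRN cells and 94.7 ± 1.07 in si-NC cells, log2 fold change 0.36) and PHF5A, the remaining SF3B subunit (55.5 ± 0.781 CPM in si-KNSTRN cells and 42.2 ± 3.30 in si-NC cells, 0.40). With PHF5A counted, 1 SF3B subunit gene rose and 3 fell. U2AF1, a partner not called, had 4.45, 3.66 and 55.7 CPM in si-KNSTRN libraries and 4.58, 4.60 and 45.9 CPM in si-NC libraries, with library 3 high in both groups; 96.8% of its 50-base windows occur in another gene.

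Of 15 U4/U6.U5 tri-snRNP genes 11 rose and 3 fell (median 0.18), with PRPF4 (95.04 ± 2.26 CPM in si-KNSTRN cells and 70.2 ± 0.763 in si-NC cells, log2 fold change 0.44) and SNU13 (85.3 ± 1.503 CPM in si-KNSTRN cells and 68.1 ± 0.921 in si-NC cells, 0.33) the 2 with the smallest p. Of 17 genes of the PRP19 complex and the catalytic steps 9 rose and 5 fell (median 0.16), although the 2 with the smallest p fell: AQR, an intron-binding helicase (28.7 ± 3.24 CPM in si-KNSTRN cells and 61.2 ± 2.13 in si-NC cells, log2 fold change -1.09), and SNW1 (90.5 ± 4.26 CPM in si-KNSTRN cells and 117 ± 2.33 in si-NC cells, -0.37). Of 6 U1 snRNP genes 1 rose and 3 fell (median -0.18), with SNRPA at -0.36 and LUC7L3 at -0.37 on the log2 scale. Of 14 Sm and LSm ring genes 3 rose and 3 fell (median 0.023), with LSM6 at -1.08 and LSM2 at 0.48.

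Of 10 hnRNP proteins with other symbols 4 rose and 4 fell (median -0.058). PTBP3, a polypyrimidine tract binding protein, fell without overlap between groups (18.7 ± 1.87 CPM in si-KNSTRN cells and 40.1 ± 3.64 in si-NC cells, log2 fold change -1.10), a difference larger in size than that of any HNRNP symbol except HNRNPA1L3. Of 13 SR-related genes 3 rose and 3 fell (median -0.064), with the paralogs TRA2A (59.8 ± 7.04 CPM in si-KNSTRN cells and 82.1 ± 1.89 in si-NC cells, log2 fold change -0.46) and TRA2B (224 ± 9.25 CPM in si-KNSTRN cells and 191 ± 2.78 in si-NC cells, 0.23) in opposite directions. Of 16 other splicing regulators 1 rose and 8 fell (median -0.16), with MBNL1 at -0.99 and TIA1 at -0.55. Of 15 genes of nonsense-mediated decay and the exon junction 4 rose and 6 fell (median -0.11), with UPF2 at -0.37 and UPF1 at 0.27. The called genes named in the lists had adjusted p-values of at most 3.1e-04 by edgeR. CLK2, SRPK2, SNRPA, PRPF4, SNW1 and TIA1 overlap another tested gene.

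**Figure D4:**
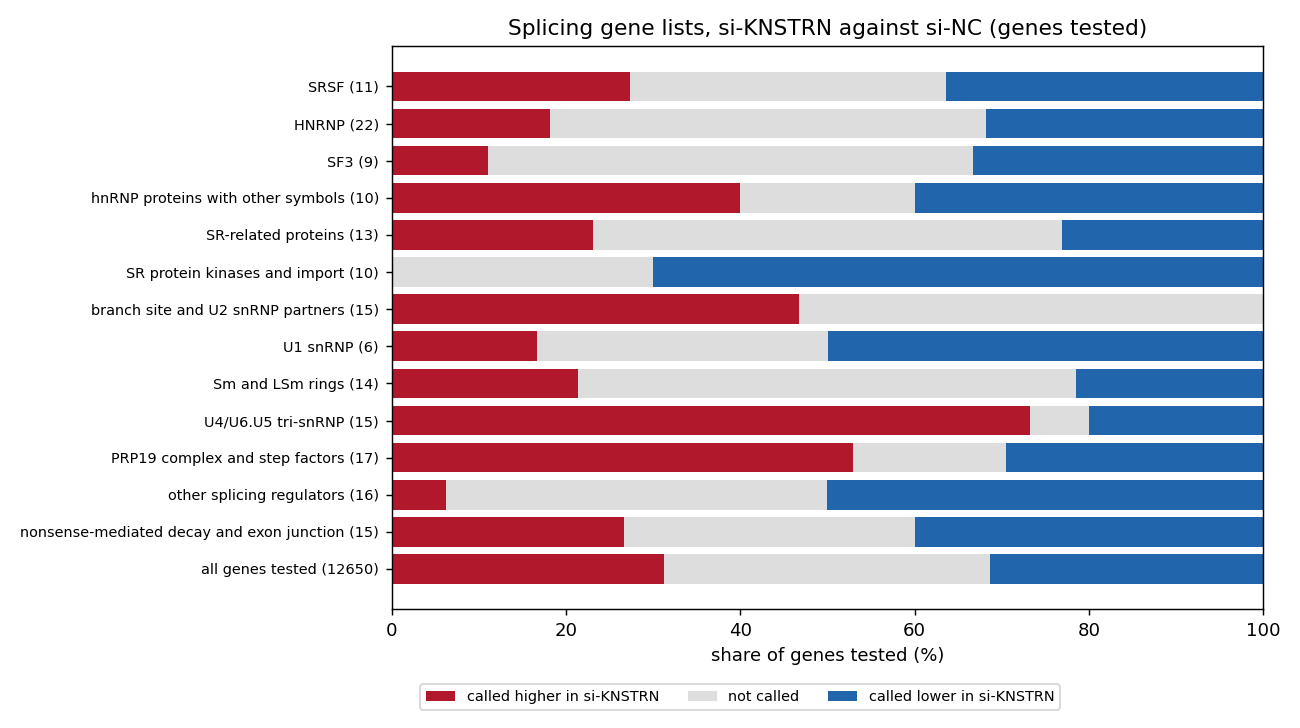
Share of genes tested in each list (x, %) that were called higher in si-KNSTRN cells (red), not called (grey) or called lower (blue), with the number tested in brackets. The SR protein kinase list has no higher call, the list of branch site and U2 partners no lower call, and 73.3% of tri-snRNP genes were called higher, against 31.2% of all genes tested.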

How the data were processed

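Total RNA of T24 cells was sequenced in 3 si-KNSTRN and 3 si-NC libraries, grouped and numbered by their titles. The values are the authors' deposited raw read counts per gene, 1 column per library, not normalized. The submitters' processing notes name HISAT2 (2.0.1), featureCounts without a version, fastp (0.20.0), FastQC (0.11.5) and the build GRCh38. The sources used here do not give strand setting, handling of multiply aligned reads, annotation release or siRNA sequences.

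All genes of the table were fitted with edgeR 4.0.16 (R 4.3.3) after filterByExpr at a minimum count of 10, which kept 12650 of 20442 genes. Counts were scaled by TMM, and the quasi-likelihood test was two-sided with group as its single term. Benjamini-Hochberg adjustment covered every gene tested, and genes were called under 0.05. CPM are TMM-scaled, and intervals of fold changes are 95%. P-values set the group difference against the spread between these libraries, which had a common biological coefficient of variation of 5.47%. They do not cover variation between cell lines or between siRNAs. The limit of 3 reads covers counting error only. Replicate pairs differed by more than sampling noise, so none was merged. The script was first tested on simulated data.

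The genes, the lists and the word TGAGTA were chosen with earlier results of these data known. Values in all libraries are given for the 4 largest called differences of each family, its 2 highest genes and close relatives, and from each list the 2 called genes with the smallest p are named. A gene of that choice is not reported here. U2AF1, which that rule does not name, was chosen after its values were seen. Gene coordinates came from a RefSeq table of GRCh38. Transcripts came from GENCODE release 29, in which all 47 genes were found, with 1 transcript per gene. Alternatives were other scalings (DESeq2-type, upper-quartile and library-size), other filters, DESeq2 1.42.0, limma-voom (limma 3.58.1), a replicate block, stricter thresholds and each library left out in turn.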

Additional observations from a re-analysis of the deposited data

How the results depend on the processing

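Over the settings run, 525 of 587 values for single splicing factors kept direction and side of the threshold, 28 lost a call, 14 gained one and 20 changed sign. HNRNPA1L3 was the only called gene to change sign (-0.505 without si-KNSTRN library 3; 1.97 to 2.5 without any other library), and DESeq2 gave it no adjusted p. The other sign changes were of uncalled genes: under upper-quartile factors HNRNPR (-0.00473), SRSF10 (-0.0353), HNRNPA0 (-0.0323), SF3B2 (-0.0125) and HNRNPUL1 (-0.0255), under library size alone SRSF3 (0.0182), SRSF2 (0.0273) and HNRNPM (0.0228), and with 1 library left out SRSF10 (-0.0256 to 0.0573), HNRNPA0 (-0.0236 to 0.0512), SF3B5 (-0.0302 to 0.112), SRSF2 (-0.0367 to 0.0252) and HNRNPM (-0.0409 to 0.00936). With 1 library left out, SRSF genes had 2 to 4 lower, a median of -0.0367 to -0.0148 and SF3 genes a median of -0.0499 to -0.0137. Under upper-quartile factors, which moved the median of all genes to -0.0491, the medians were -0.0615 (SRSF), -0.0882 (HNRNP) and -0.0812 (SF3), the log2 ratios of summed CPM -0.143 (SRSF) and -0.104 (SF3), and no SF3 gene was called higher (0). Under library size alone, which moved it to 0.0303, the medians were 0.0182 (SRSF) and -0.00111 (SF3), the ratios -0.063 (SRSF) and -0.0245 (SF3), 2 SRSF genes were lower and 2 SF3 genes higher. At an adjusted p under 0.01, 2 SRSF genes were lower and 0 SF3 genes higher. At a log2 fold change of at least 0.32 in size, 2431 of all genes were called higher, 1 SRSF gene higher and 2 lower, 2 HNRNP genes lower, 0 SF3 genes higher and 0 lower, and 12 list genes higher and 13 lower. Without the 4 genes of library 3, chosen after seeing the data, the HNRNP ratio was -0.0318. The cause of these shifts was not tested. Over all genes tested, deviations of same-numbered libraries from their group means were hardly correlated (-0.0628, 0.053 and -0.0342). Such correlations do not cover a replicate effect limited to some genes, and U2AF1 was high in library 3 of both groups. With the replicate block 3831 genes were higher and 3857 lower. SRSF6, HNRNPH2 and HNRNPA1L3 were then no longer called (adjusted p = 0.059, 0.0534 and 0.0692, edgeR).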
